A study of Mus musculus with 21 samples.

Results

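miR-192, miR-194 and miR-215 are microRNAs (miRNAs, short RNAs that bind matching sites in messenger RNAs and lower their output). Kidney tubule cells hold miR-192 and miR-194 at high or moderate levels, while miR-215-5p was scarce in these kidneys. The 4 rows described here, which are miR-215-5p, miR-194-2-5p and both strands of miR-192 (miR-192-5p and miR-192-3p), were taken by name from a table of 1125 mature mouse miRNAs. The names were chosen with earlier results of these data known, so the members are not an unselected set. All 4 had reads in all 21 libraries and passed the filter on low values, as did 431 miRNAs in all. Small RNA was sequenced from the kidneys of BALB/c males of 12 weeks, with no genetic change named in the labels, after an injection of 250 mg/kg folic acid in sodium bicarbonate, a treatment that injures the tubules and is followed by fibrosis. Kidneys were taken on day 0 and on days 1, 2, 3, 7, 14 and 28, with 3 libraries a day. The labels say neither whether the day 0 mice were injected nor whether each library is 1 animal, so a p-value measures the spread between libraries only. There is no group without folic acid after day 0 here, and all comparisons with day 0 share the same 3 day 0 libraries, so time, age and folic acid cannot be told apart in them.

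Each of these miRNAs is cut from a hairpin precursor, whose 5′ and 3′ strands give the -5p and -3p products. miR-192 and miR-194 are made from paired genes that are active in kidney, liver and gut epithelium. In human cells the tumor suppressor p53 can induce miR-192, miR-194 and miR-215, and in kidney research miR-192 is known for its effect on ZEB1 and ZEB2, repressors of the epithelial programme, with reports of both loss and gain in fibrosis.

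The mature sequences, from RefSeq on build GRCm38.p6, show which of these miRNAs can share targets. They are given 5′ to 3′, and capitals mark the seed, bases 2 to 8, which pairs with targets.
miR-192-5p: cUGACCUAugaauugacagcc
miR-215-5p: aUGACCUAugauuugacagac
miR-194-2-5p: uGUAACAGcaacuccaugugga
miR-192-3p: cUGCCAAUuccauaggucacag
miR-194-2-3p: cCAGUGGGgcugcuguuaucug
miR-192-5p and miR-215-5p had the same seed, UGACCUA, and no other mature name in the RefSeq table carried it. They were identical at 18 of 21 bases. The 3 differences were C1A, A12U and C20A, with the base of miR-192-5p first and positions counted from the 5′ end. miR-194-2-5p and the -3p strands each had another seed.

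The genes lie in 2 pairs. On build GRCm38.p6, Mir194-2 is at chr19:6264643-6264728 and Mir192 at chr19:6264844-6264932, both on the plus strand, with 115 bases between them. Neither hairpin lies in an annotated protein-coding gene, and the nearest, Atg2a, ends 2308 bases before Mir194-2. The second pair is on chromosome 1, where Mir194-1 is at chr1:185313319-185313385 and Mir215 at chr1:185313581-185313692, with 195 bases between them. This pair is on the plus strand, inside an intron of Iars2, a mitochondrial isoleucyl-tRNA synthetase gene on the opposite strand, and inside the noncoding gene 2010103J01Rik, where Mir215 is in an exon and Mir194-1 in an intron. The hairpins of the chromosome 19 pair and of Mir194-1 are shown with both mature strands in capitals, because they show which products can be traced to 1 gene.
Mir192: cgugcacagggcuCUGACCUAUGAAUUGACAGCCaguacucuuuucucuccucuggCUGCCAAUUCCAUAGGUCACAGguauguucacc
Mir194-2: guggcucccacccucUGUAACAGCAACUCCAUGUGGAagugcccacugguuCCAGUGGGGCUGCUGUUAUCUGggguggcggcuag
Mir194-1: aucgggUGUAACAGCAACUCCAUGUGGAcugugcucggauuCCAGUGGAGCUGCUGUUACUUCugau
The 5′ strand is the same in Mir194-1 and Mir194-2. Reads of the row named miR-194-2-5p therefore cannot be assigned to either gene, whereas the 3′ strands differ and miR-194-2-3p is made by Mir194-2 alone.

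Libraries held 2875675 to 7110546 reads assigned to miRNAs. Levels are given as CPM (reads scaled to a common total of miRNA reads) scaled by TMM, a factor per library that keeps the bulk of miRNAs level, and changes are differences of log2(CPM + 1), tested with limma in 1 fit of all libraries. A change with a p under 0.05, after Benjamini-Hochberg adjustment over the 431 miRNAs, is named a call. On the first principal component (41.1% of the variance of log2 levels), Day 14 replicate 3 was at 6.87, while the other day 14 libraries were at 1.20 and 1.70. Results for day 14 are therefore also given without it where that matters. The distance between 2 libraries of a day was also taken, as the chi-square per degree of freedom between their reads. For Day 14 replicate 3 it was 277 and 262, against 41.4 between the other day 14 libraries. For Day 7 replicate 1 it was 274 and 226, against 46.8 between the other day 7 libraries. No day 7 call of a member against day 0 was lost when a library was left out. The liver miRNA miR-122-5p, a check on carried-over liver RNA because liver also makes miR-192 and miR-194, was at 0 to 1.14 CPM in the 21 libraries.

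By mean level, miR-192-5p was the 4th most abundant miRNA on day 0, next below miR-22-3p at 121673 CPM and above miR-30a-5p at 80411 CPM. In the day 0 libraries it ranked 1st, 3rd and 4th. The other members were far scarcer. A day 0 library held on average 36.5 reads of miR-192-5p for each read of miR-194-2-5p, 5223 for each of its own -3p strand and 5664 for each of miR-215-5p. miR-194-2-5p ranked 29th and the remaining members 226th and 233rd. The 4 members together made up 7.03% ± 1.20 of miRNA reads on day 7 and 6.79% ± 0.602 on day 14, against 11.8% ± 0.909 on day 0 (SD, n = 3 each). miR-192-5p alone made up 6.82%, 6.58% and 11.4% on these days.

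miR-192-5p, the main product of the Mir192 hairpin, fell within a day of folic acid and stayed low through day 14. It was higher on day 28 than on day 7. Its level was 124565, 128927 and 109218 CPM in the day 0 libraries and 91886, 88901 and 78782 CPM on day 1. It was 73827, 69436 and 67598 CPM on day 2 and 78480, 65834 and 77208 CPM on day 3. It was 58306, 67091 and 73506 CPM on day 7, 75192, 72177 and 55541 CPM on day 14, and 90844, 106393 and 86911 CPM on day 28. All 3 libraries of each later day lay below all 3 of day 0, day 28 included. The lowest library was Day 14 replicate 3, followed by Day 7 replicate 1.

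In order of mean level after TMM scaling, day 0 was highest, followed by days 28, 1, 3, 2, 14 and 7. Libraries of neighbouring days in this order overlapped, except that day 0 lay above day 28 and day 1 above day 3. Before TMM scaling, day 14 was lowest, at 65836 CPM, against 68190 CPM on day 7. Day 1 (87352 CPM) was then above day 28 (84696 CPM). The TMM-scaled mean was 66301 ± 7631 CPM on day 7, against 120904 ± 10352 CPM on day 0 (SD, n = 3 each), or 54.8% of the day 0 level. Against day 0, the log2 changes on days 1, 2, 3, 7 and 14 were -0.48, -0.78, -0.71, -0.87 and -0.85, with a standard error of 0.12 each. Their adjusted p in limma, in the same order of days, were 0.0052, 2.6e-05, 6.3e-05, 4.7e-06 and 9.3e-06. These 5 calls held under all 12 other settings tried, with day 7 changes of -1.06 to -0.66.

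miR-194-2-5p, which shares its seed with no other mature name in the table and is a marker of the same epithelia, took a similar course at a lower level. It was at 3422, 3446 and 3058 CPM on day 0, 2615, 2343 and 2379 CPM on day 1, and 2201, 2014 and 1997 CPM on day 2. It was at 2277, 2284 and 2347 CPM on day 3 and 2033, 2040 and 2006 CPM on day 7. On day 14 it was at 2423, 2347 and 1491 CPM, and on day 28 at 2638, 3147 and 2456 CPM. No library of days 1 to 14 reached the lowest of day 0, while the highest day 28 library did. Day 14 was the most spread, because replicate 3 was the lowest of all 21 libraries.

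The mean of miR-194-2-5p was 2026 ± 18.1 CPM on day 7, against 3309 ± 217 CPM on day 0 (SD, n = 3 each), a log2 change of -0.71 with a 95% interval of -0.99 to -0.42 (limma adjusted p = 0.00019). On days 1, 2, 3 and 14 the changes were -0.44, -0.68, -0.52 and -0.70, all called, with adjusted p of 0.022, 0.00042, 0.0030 and 0.00036 in limma. The day 1 call was lost in 4 of 6 fits that left out a library of day 0 or day 1: without Day 0 replicate 1 or 2 (-0.41 and -0.39) and without Day 1 replicate 2 or 3 (-0.38 and -0.42). It was also lost with upper-quartile factors, without the filter on low values and with library totals that leave out miR-21. Without Day 14 replicate 3 the day 14 change was still called. In order after TMM scaling, the days ran 0, 28, 1, 3, 14, 2 and 7, and each day overlapped the next. Before TMM scaling, day 14 was lowest, at 2022 CPM, against 2074 CPM on day 7.

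miR-215-5p shares the seed of miR-192-5p, but its gene is in the other pair. It was lower on days 2 to 14, on 32 to 106 reads a library. The 2 strands are identical at 18 of 21 bases, and the sources used here do not name the aligner. Whether any reads of this row came from miR-192-5p was not tested. miR-215-5p was at 25.8, 20.3 and 18.8 CPM on day 0, 18.9, 16.1 and 15.0 CPM on day 1, and 12.8, 13.4 and 9.71 CPM on day 2. It was at 15.0, 13.5 and 11.4 CPM on day 3, and 7.79, 12.5 and 11.9 CPM on day 7. On day 14 it was at 12.8, 10.8 and 10.6 CPM, and on day 28 at 18.3, 23.7 and 14.6 CPM. Libraries of days 2, 3, 7 and 14 lay below all of day 0, and those of days 1 and 28 overlapped day 0. Day 7 replicate 1 was the lowest library.

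Its mean was 10.7 ± 2.56 CPM on day 7, against 21.6 ± 3.68 CPM on day 0 (SD, n = 3 each), a log2 change of -0.96 with a 95% interval of -1.37 to -0.55 (limma adjusted p = 0.00032). The change was also called on day 2 (-0.80, adjusted p = 0.0021), day 3 (-0.66, 0.0079) and day 14 (-0.86, 0.0013). On day 1 it was -0.35 with adjusted p = 0.19 and was not called. Counting alone gives a coefficient of variation of 12.9% at these reads, and libraries of the same day varied by 17.6%. The day 3 call was lost with library totals in place of TMM (-0.48). The order of days after TMM scaling, 0, 28, 1, 3, 2, 14 and 7, was that of miR-192-5p, and each day overlapped the next.

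miR-192-3p, the scarce strand of the same hairpin as miR-192-5p, gave no call against day 0 on any day. It was at 26.8, 23.5 and 19.7 CPM on day 0, 25.5, 25.4 and 28.0 CPM on day 1, and 20.4, 13.4 and 20.6 CPM on day 2. It was at 14.8, 22.3 and 24.1 CPM on day 3, and 18.6, 20.6 and 18.4 CPM on day 7. On day 14 it was at 18.1, 25.0 and 12.0 CPM, and on day 28 at 19.5, 16.3 and 20.5 CPM. Every later day overlapped day 0, and the day 1 mean was the highest of the course. With 51 to 143 reads a library, counting alone gives a coefficient of variation of 10.7%, and libraries of the same day varied by 20.0%.

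Its log2 changes against day 0 on days 1, 2, 3, 7, 14 and 28 were 0.18, -0.36, -0.20, -0.26, -0.38 and -0.30, with limma adjusted p of 0.17 to 0.60. The 95% interval on day 7 was -0.71 to 0.20. Without Day 14 replicate 2 the day 14 change was -0.62 and was called (adjusted p = 0.027).

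**Figure D1:**
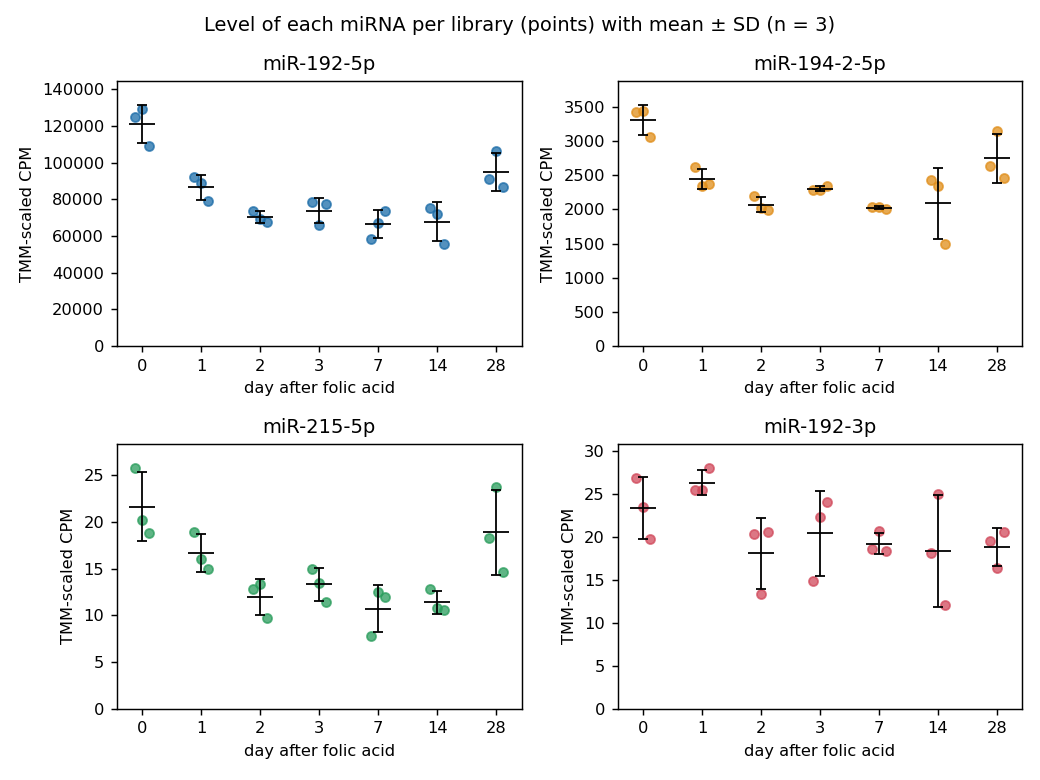
Level of each member in TMM-scaled CPM (vertical axes, starting at 0) by day after folic acid, with a point per library and the mean ± SD of 3 libraries as bars. miR-192-5p, miR-194-2-5p and miR-215-5p were lower on days 2 to 14 than on day 0, with no overlap, while miR-192-3p overlapped day 0 on every later day.

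On days 2, 3, 7 and 14, 3 of the 4 members were called lower, against 19.0%, 19.0%, 22.7% and 17.9% of all 431 tested miRNAs called lower on those days. On day 1 it was 2 of 4 members, against 11.1% of all. With all 3 libraries below those of day 0 there were 2 members on day 1 (17.4% of all miRNAs) and 3 on day 2 (26.0%), day 3 (25.1%), day 7 (27.4%) and day 14 (20.2%). The median change of all tested miRNAs was 0.07 on day 7 and 0.02 on day 2. Over all days, the limma F test called miR-192-5p (adjusted p = 1.7e-05), miR-194-2-5p (0.00071) and miR-215-5p (0.0010) but not miR-192-3p (0.21), and it called 63.1% of all miRNAs.

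**Figure D2:**
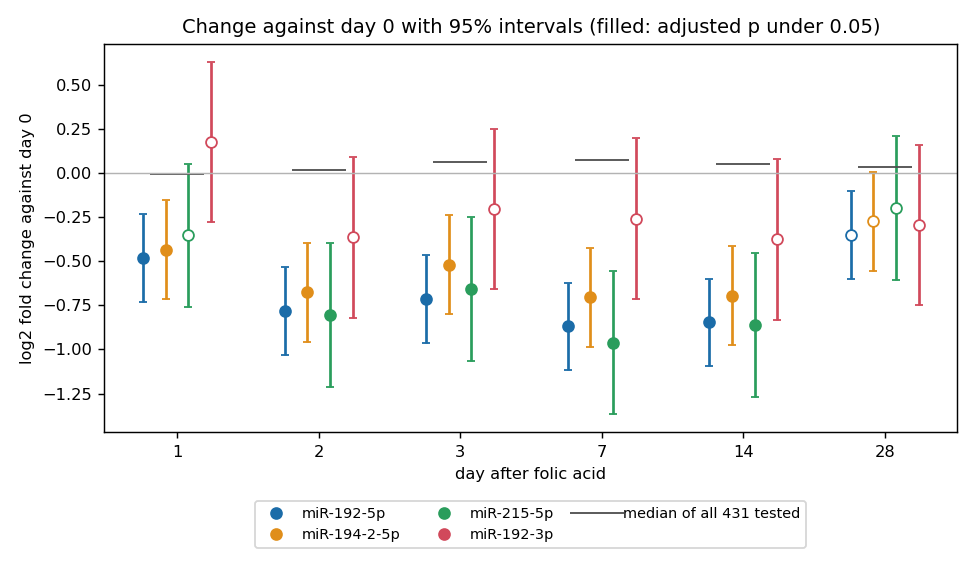
Change of each member against day 0 (log2 fold change, vertical axis) on each later day, with 95% intervals from the limma fit. Filled points have an adjusted p under 0.05, and short grey lines mark the median of all 431 tested miRNAs. The called members lie between -0.44 and -0.96, and on day 28 all 4 points are open.

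**Figure D3:**
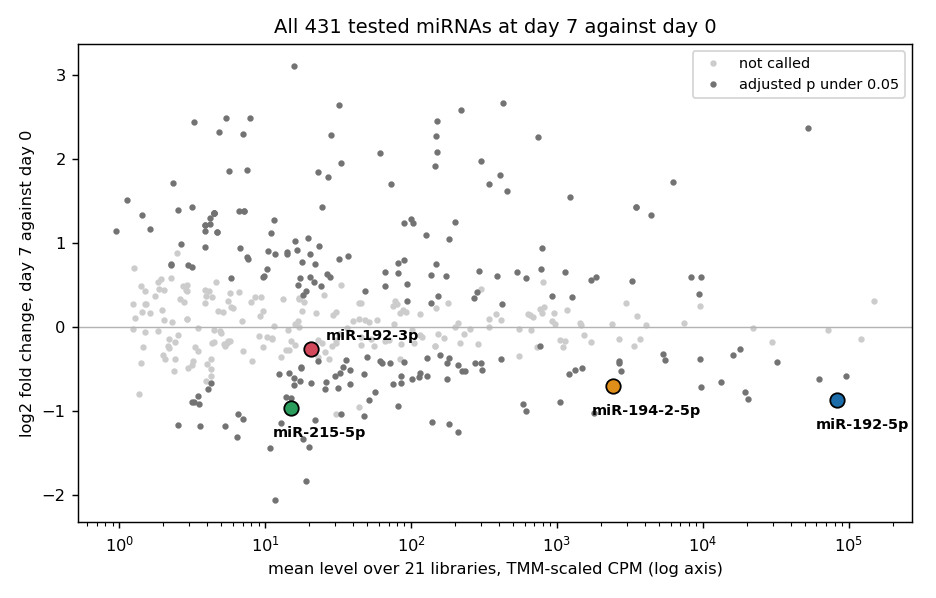
Change on day 7 against day 0 (log2, vertical axis) of all 431 tested miRNAs by mean level over 21 libraries (TMM-scaled CPM, log axis), with called miRNAs in dark grey. The 3 called members lie between -0.71 and -0.96 at mean levels of 14.9 to 82887 CPM, and miR-192-3p lies at -0.26 among miRNAs not called.

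Between neighbouring days up to day 14 (day 2 against 1, 3 against 2, 7 against 3 and 14 against 7), no member was called. Of all miRNAs, these steps called 2.78%, 5.34%, 1.86% and 4.41% in either direction. The largest member change in them was that of miR-192-3p on day 2 against day 1, at -0.54 (limma adjusted p = 0.19). miR-192-5p changed by -0.30 in that step (0.18). The late mean (days 7, 14 and 28) minus the early mean (days 1, 2 and 3) was -0.03 for miR-192-5p, -0.01 for miR-194-2-5p, -0.07 for miR-215-5p and -0.18 for miR-192-3p, none called, while 36.9% of all miRNAs were called in either direction. With library totals that leave out miR-21, 3 of these changes were called lower, at -0.21 for miR-192-5p, -0.19 for miR-194-2-5p and -0.35 for miR-192-3p. That scaling moved the median change of all miRNAs by -0.14 against TMM. Of all miRNAs, it called 143 lower and 42 higher, against 76 lower and 83 higher with TMM. Whether these 3 calls are specific to the members was not tested.

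By day 28, 3 members had risen from their lowest levels. miR-192-5p averaged 94716 ± 10302 CPM on day 28, against 66301 ± 7631 CPM on day 7 (SD, n = 3 each), a log2 change of 0.52 (limma adjusted p = 0.0023). miR-194-2-5p averaged 2747 ± 358 CPM on day 28, against 2026 ± 18.1 CPM on day 7 (0.43, adjusted p = 0.016). miR-215-5p averaged 18.9 ± 4.57 CPM on day 28, against 10.7 ± 2.56 CPM on day 7 (0.76, adjusted p = 0.0047). The libraries did not overlap for any of these members, as for 24.4% of all miRNAs on the higher side, and 16.5% of all were called higher. miR-192-3p, by contrast, averaged 18.8 ± 2.20 CPM on day 28, against 19.2 ± 1.24 CPM on day 7, a change of -0.04 that was not called. The miR-194-2-5p call was lost with library totals (0.24) and when Day 7 replicate 2 (0.37) or Day 28 replicate 2 (0.33) was left out, and all 3 calls were lost with library totals that leave out miR-21.

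The same 3 members were called higher on day 28 than on day 14, by 0.49 (miR-192-5p, limma adjusted p = 0.013), 0.42 (miR-194-2-5p, 0.047) and 0.66 (miR-215-5p, 0.030), where 4.41% of all miRNAs were called higher and 16.2% did not overlap on the higher side. All 3 calls were lost without Day 14 replicate 3, where the changes were 0.36, 0.20 and 0.61, and without Day 28 replicate 2, where they were 0.41, 0.32 and 0.49. Whether the return was complete was not settled. Against day 0, day 28 changes were -0.35 for miR-192-5p (95% interval -0.60 to -0.11, adjusted p = 0.055), -0.27 for miR-194-2-5p (-0.55 to 0.01, 0.21) and -0.20 for miR-215-5p (-0.61 to 0.21, 0.55). No member was called lower on day 28, against 1.86% of all miRNAs. The miR-192-5p libraries of day 28 did not overlap those of day 0, as for 12.1% of all miRNAs on the lower side, and 5 of the 12 other settings called it, DESeq2 among them at -0.39.

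Ratios within a library do not depend on the scaling between libraries, so they were used to compare the members with each other. miR-194-2-5p reads were 2.73% to 3.49% of miR-192-5p reads on day 7, against 2.67% to 2.80% on day 0. This ratio lay wholly above day 0 on day 2 (2.90% to 2.98%), day 3 (2.90% to 3.47%) and day 28 (2.83% to 2.96%), and it overlapped day 0 on days 1, 7 and 14. Over days 1 to 28 the log2 ratio averaged -5.07 ± 0.11 (SD, n = 18 libraries), against -5.19 ± 0.03 on day 0 (n = 3), a difference of 0.12 (exact two-sided permutation p = 0.077, adjusted over 8 tests 0.31). miR-215-5p reads were 0.0134% to 0.0186% of miR-192-5p reads on day 7, against 0.0157% to 0.0207% on day 0. That log2 ratio averaged -12.46 ± 0.20 on days 1 to 28 (n = 18), against -12.46 ± 0.20 on day 0 (n = 3), a difference of -0.01 (exact permutation p = 0.97). The ratio of miR-215-5p to miR-194-2-5p differed by -0.13 (exact permutation p = 0.44, n = 18 against 3). None of these 3 differences over days 1 to 28 passed the test.

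In the libraries of days 1, 7 and 14, the -3p strand of miR-192 made up more of the hairpin's reads than on day 0. The difference over days 1 to 28 did not pass the test. miR-192-3p reads were 0.0278% to 0.0356% of miR-192-5p reads on day 1, 0.0250% to 0.0319% on day 7 and 0.02163% to 0.0346% on day 14. These were above the 0.0180% to 0.02155% of day 0, on day 14 only just. Days 2, 3 and 28 overlapped day 0, and day 28 was at 0.0153% to 0.0236%. The log2 ratio averaged -11.90 ± 0.34 on days 1 to 28 (SD, n = 18), against -12.35 ± 0.14 on day 0 (n = 3), a difference of 0.44 (exact two-sided permutation p = 0.039, adjusted 0.31), so it did not pass the correction over 8 tests. The smallest p this design allows is 0.00075, while 1 day of 3 libraries against day 0 cannot go below 0.10. Without Day 28 replicate 2 the difference was 0.49 with an adjusted p of 0.049. Days 7, 14 and 28 against days 1, 2 and 3 gave adjusted exact permutation p of 0.86 for all 4 ratios (n = 9 each).

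**Figure D4:**
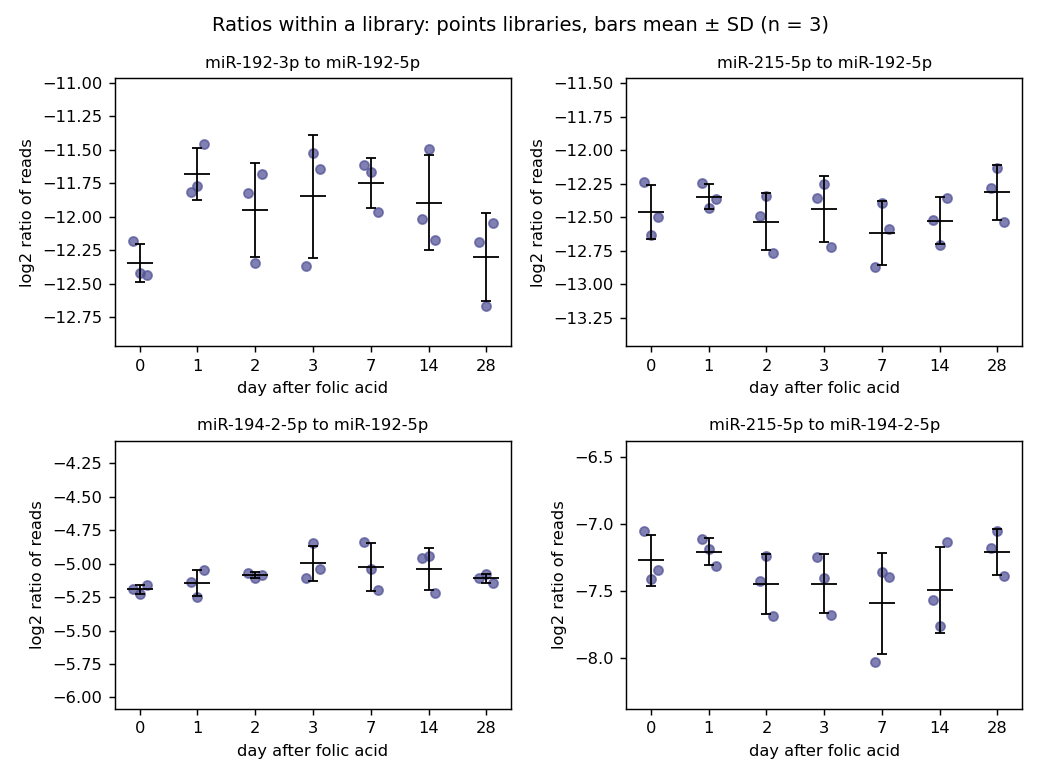
Log2 ratios of reads between members within each library (vertical axes, each spanning 2 log2 units) by day after folic acid, with a point per library and bars for the mean ± SD of 3 libraries. The ratio of miR-192-3p to miR-192-5p is above day 0 in all libraries of days 1, 7 and 14, and the ratio of miR-215-5p to miR-192-5p overlaps day 0 on every day.

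The other strands of these hairpins were also in the table. miR-194-2-3p, which only Mir194-2 makes, was at 21.9, 17.4 and 21.7 CPM on day 0, 24.1, 21.8 and 18.3 CPM on day 1, and 18.8, 15.0 and 18.7 CPM on day 2. It was at 20.9, 20.0 and 19.5 CPM on day 3, 9.31, 12.5 and 17.2 CPM on day 7, 11.8, 12.5 and 16.3 CPM on day 14, and 18.3, 12.7 and 15.4 CPM on day 28. It overlapped day 0 on days 1 to 3. It lay below day 0 on day 7, only just, and on day 14, as did 27.4% and 20.2% of all miRNAs. Its log2 change was -0.21 on day 2 (limma adjusted p = 0.39), -0.64 on day 7 (0.0071) and -0.56 on day 14 (0.020) against day 0. Of all miRNAs, 22.7% and 17.9% were called lower on days 7 and 14. The late mean of miR-194-2-3p was below its early mean, with a log2 difference of -0.48 (limma adjusted p = 0.0016). That comparison called 36.9% of all miRNAs in either direction. With 37 to 132 reads of miR-194-2-3p a library, counting alone gives a coefficient of variation of 11.8%. miR-215-3p had 1 read in 1 of the 21 libraries and was not tested.

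By Pearson correlation of log2 levels over the 21 libraries, a description over libraries that share days and normalization, miR-194-2-5p (r = 0.94) and miR-215-5p (0.90) followed miR-192-5p, while miR-192-3p (0.41) and miR-194-2-3p (0.41) did so less. With each day's mean removed, r was 0.78, 0.63, 0.23 and -0.01 for these in the same order. Among 147 other miRNAs that averaged 100 CPM or more, the 8 most like miR-192-5p were miR-107-3p (0.96), miR-378-3p (0.94), miR-101a-3p (0.93), miR-187-3p (0.90), miR-203-3p (0.89), miR-22-3p (0.89), miR-26b-5p (0.87) and miR-29c-3p (0.87). The median r of the 147 was 0.03. miR-107-3p averaged 1310 ± 202 CPM on day 7, against 2654 ± 233 CPM on day 0 (SD, n = 3 each). miR-203-3p, known from skin as a miRNA of differentiating epithelium, averaged 444 ± 45.1 CPM on day 7, against 886 ± 41.8 CPM on day 0. miR-29c-3p, a repressor of collagen messages, averaged 442 ± 77.4 CPM on day 7, against 837 ± 139 CPM on day 0.

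The 5 least like it were let-7i-5p (r = -0.91), let-7e-5p (-0.90), miR-132-3p (-0.88), miR-19b-3p (-0.87) and miR-183-5p (-0.86). miR-132-3p, which is induced by CREB signalling, averaged 313 ± 32.6 CPM on day 7, against 51.3 ± 5.25 CPM on day 0. let-7i-5p averaged 8919 ± 645 CPM on day 7, against 2693 ± 256 CPM on day 0. These were highest where miR-192-5p was lowest and came part of the way back by day 28. They were picked by correlation with miR-192-5p in these same libraries, so an opposite course follows from the choice.

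**Figure D5:**
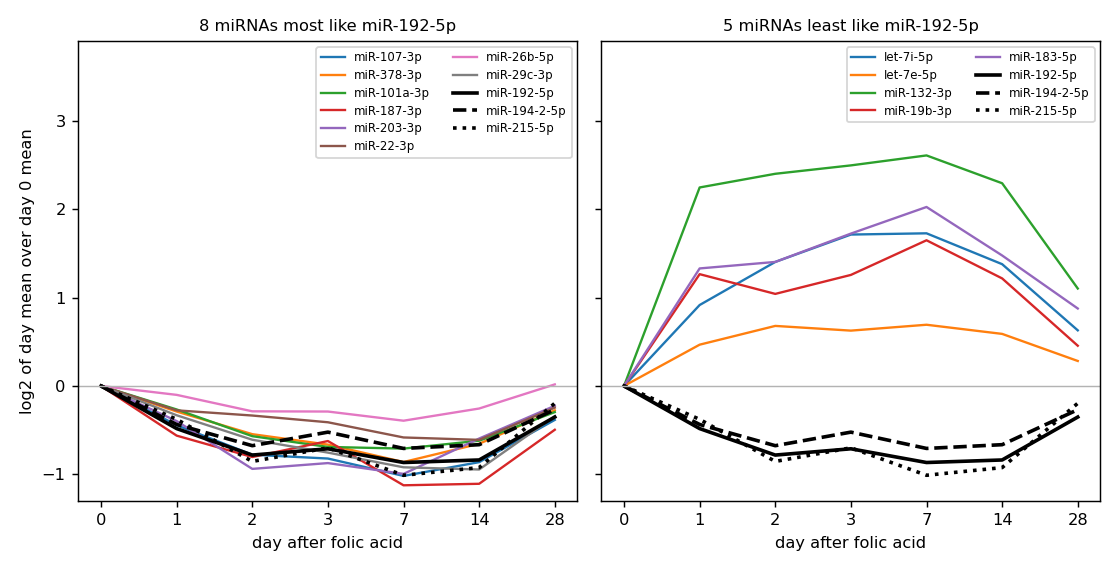
Day means over the day 0 mean (log2, vertical axis) by day after folic acid for the 8 miRNAs most like miR-192-5p (left) and the 5 least like it (right), with miR-192-5p, miR-194-2-5p and miR-215-5p in black in both panels. The left-hand miRNAs, picked for their likeness, fell with miR-192-5p. Those on the right, such as miR-132-3p, were picked for the lowest correlation and were higher than on day 0 throughout.

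Other miRNAs of the tubule were mostly lower on days 2, 3 and 7, less uniformly on days 1 and 14, and none of them was called lower on day 28. The list held 13 tubule-enriched miRNAs, mostly of the miR-30, miR-10 and miR-196 families, with miR-204 and miR-190. On day 2, 10 of them were called lower and 0 higher, against 19.0% and 24.4% of all miRNAs, with a median change of -0.42. On day 3, 9 were called lower and 1 higher, against 19.0% and 30.4% of all miRNAs. On day 7, 8 were called lower and 1 higher, against 22.7% and 29.7% of all miRNAs. The median was -0.43 on each of these days. On day 1, 4 were called lower and 0 higher, against 11.1% and 14.2% of all miRNAs (median -0.25). On day 14, when 3 of the members were still low, 4 were called lower and 3 higher, with a median of -0.15. Of all miRNAs, 17.9% were called lower and 25.1% higher on that day. On day 28, 1 was called higher (11.1% of all miRNAs), with a median of 0.08 against 0.03 for all miRNAs. On day 28 against day 7, 9 of the 13 were called higher and 1 lower, against 16.5% and 20.6% of all miRNAs. In the late mean against the early mean, 9 were called higher and 0 lower (19.3% of all miRNAs were called higher), where no member was called. miR-30e-5p, an abundant miRNA of the miR-30 family, averaged 12864 ± 610 CPM on day 2, against 27384 ± 3482 CPM on day 0, and 25336 ± 149 CPM on day 28. miR-10a-5p, a miRNA of the Hox clusters that kidney holds at very high level, was not called on day 2 (-0.10, limma adjusted p = 0.63) or day 7 (0.31, 0.11). With library totals, 6 of the 13 were called lower and 1 higher on day 2.

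The miR-200 family, whose members repress ZEB1 and ZEB2 and mark epithelium at large, had shares of calls near or below those of all miRNAs on days 2 and 7. Of its 5 miRNAs, 1 was called lower on day 2 (19.0% of all miRNAs) and 0 higher (24.4%), and on day 7 1 was called lower (22.7% of all) and 1 higher (29.7%). The miRNA lower on both days was miR-200a-3p, at 1229 ± 99.0 CPM on day 7, against 1752 ± 213 CPM on day 0 (-0.51, limma adjusted p = 0.00020). miR-200b-3p was at 4286 ± 637 CPM on day 7, against 4208 ± 534 CPM on day 0, a change of 0.02 that was not called.

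The miR-34 family, which p53 induces directly, was higher up to day 14. Of its 5 strands, 4 were called higher and none lower on day 2 and again on day 7 (24.4% and 29.7% of all miRNAs were called higher on those days), with medians of 0.58 and 0.94. On day 1, 3 were called higher (14.2% of all miRNAs). All 5 were called higher on day 3 (30.4% of all) and on day 14 (25.1%), and none on day 28 (11.1%). miR-34a-5p averaged 154 ± 35.7 CPM on day 7, against 62.0 ± 4.62 CPM on day 0 (1.28, limma adjusted p = 4.6e-05). Of 5 fibrosis-related strands, 2 were called higher and 2 lower on day 7, when 29.7% of all miRNAs were called higher and 22.7% lower. The higher ones were the strands of miR-21, and the lower ones included miR-29a-3p (-0.52) and miR-29c-3p (-0.92). miR-21-5p averaged 76267 ± 10430 CPM on day 7, against 14742 ± 1621 CPM on day 0, and its share of all miRNA reads was 7.76% on day 7, against 1.40% on day 0. Its mean share was above that of miR-192-5p on day 2 (8.37% of reads for miR-21-5p and 7.63% for miR-192-5p), on day 3 (8.10% and 7.98%) and on day 7, when miR-192-5p held 6.82%.

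Some markers of other cells also changed, not all on the same days. Their part in the fall of the 3 members was not tested. In whole kidney, fewer tubule cells and less of a miRNA per cell cannot be told apart. The summed level of 7 leukocyte miRNAs was 2287 to 3345 CPM on day 7, against 937 to 1235 CPM on day 0, with 5 of 7 called higher (29.7% of all miRNAs). That of 4 mesenchymal miRNAs was 5801 to 6000 CPM on day 7, against 1985 to 2389 CPM on day 0, with all 4 called higher (29.7% of all miRNAs). On day 1, when miR-192-5p was already lower, the mesenchymal sum was 1932 to 2428 CPM, overlapping day 0, with none of the 4 called. The leukocyte sum of day 1 was 1322 to 1506 CPM, wholly above day 0, with 4 of 7 called higher (14.2% of all miRNAs). The erythroid sum of 3 miRNAs also lay wholly above day 0 on day 1, at 4479 to 7598 CPM, against 1272 to 3329 CPM on day 0. Of these 3 miRNAs, 1 was called higher (14.2% of all miRNAs). On day 28 the mesenchymal sum, at 4189 to 5234 CPM, and the leukocyte sum, at 2009 to 2159 CPM, were still above day 0.

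The remaining markers were less uniform. Of all miRNAs, 11.1%, 19.0%, 19.0%, 22.7%, 17.9% and 1.86% were called lower on days 1, 2, 3, 7, 14 and 28. The shares called higher were 14.2%, 24.4%, 30.4%, 29.7%, 25.1% and 11.1%, in the same order. Both endothelial strands of miR-126 were called lower on days 2, 3, 7 and 14 and not on days 1 or 28. On day 7 they had a sum of 10549 to 11095 CPM, against 13246 to 15446 CPM on day 0. The 3 erythroid miRNAs were all called higher on day 2, 1 was called lower on day 3 and on day 14, and none was called on day 7 or 28, with sums of 4689 to 9523 CPM on day 2 and 759 to 2359 CPM on day 7, against 1272 to 3329 CPM on day 0. Of the 2 smooth muscle miRNAs, 1 was called higher on days 1, 3 and 14, and neither was called on day 2, 7 or 28. miR-375-3p, of endocrine and gut epithelium, was called higher on days 2, 3, 7, 14 and 28 and not on day 1, at 666 ± 67.8 CPM on day 7, against 189 ± 11.1 CPM on day 0. The striated muscle miRNA miR-133a-3p was called lower on day 7 and on no other day, and the neural miRNA miR-9-5p was not called on any day. In Day 14 replicate 3, the library with the least miR-192-5p and miR-194-2-5p, the mesenchymal sum was 8855 CPM, against 6060 and 5334 CPM in the other day 14 libraries, and its part in those low levels was not tested.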

How the data were processed

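Whole mouse kidney RNA was made into TruSeq small RNA libraries, per the labels' protocols. The authors deposited CPM per mature miRNA (the file calls them counts). CASAVA 1.8 and build mm9 were used, per the submitters' processing notes, while neither aligner nor counter nor miRBase version is given in the sources used here. Whole reads were recovered from the CPM steps for 100.0% of values, within 0.05 of a read. A count of 0 allows 3 reads, or 0.422 to 1.04 CPM by library, for counting error only.

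filterByExpr (edgeR 4.0.16, minimum count 10) kept 431 miRNAs. limma 3.58.1 (limma-trend) was fitted to log2(TMM-scaled CPM + 1), with 1 mean per day, in R 4.3.3, and was checked on simulated data. This scale understates the change of scarce miRNAs. edgeR's quasi-likelihood test on the recovered reads, an alternative, called 105, 193, 211, 225, 184 and 52 miRNAs on days 1, 2, 3, 7, 14 and 28. DESeq2 1.42.0, other scalings, pseudocounts and filters, and fits without each library were also run. Ratios were tested by exact permutation over libraries (8 tests, Benjamini-Hochberg).

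Members and lists were chosen with earlier results of these data known. Named miRNAs are the members, their other strands, the 8 most and 5 least like miR-192-5p, neighbours in level, miR-21-5p and up to 4 of the most abundant of each list. Sequences are RefSeq's (839 table names matched) and gene positions are from GENCODE M21.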

Additional observations from a re-analysis of the deposited data

How the results depend on the processing

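Of 1300 refits of 64 results for the members, 1203 kept direction and side of the threshold, and none of the 44 that turned direction was called in either fit. Calls were lost as follows, and the cause was not tested. On day 1 against day 0, miR-194-2-5p lost its call with upper-quartile factors (-0.42), no filter (-0.40) and totals without miR-21 (-0.28). On day 3, miR-215-5p lost it with library totals (-0.48) and totals without miR-21 (-0.38), as did miR-194-2-5p with the last (-0.23). On day 28 against day 14, calls were lost with library totals (miR-192-5p 0.36, miR-215-5p 0.54, miR-194-2-5p 0.29), upper-quartile factors (0.40, 0.57, 0.33), totals without miR-21 (0.33, 0.50, 0.26), no filter (0.50, 0.67, 0.43) and only the days compared (0.48, 0.65, 0.41), and for miR-194-2-5p with edgeR (0.40). On day 28 against day 7 they were lost with totals without miR-21 (0.24, 0.50, 0.15) and, for miR-194-2-5p, library totals (0.24). miR-192-5p on day 28 against day 0 gained a call with library totals (-0.44), RLE (-0.40), upper-quartile (-0.48), totals without miR-21 (-0.43) and DESeq2 (-0.39). Totals without miR-21 also gave calls in late against early days for miR-192-5p (-0.21), miR-192-3p (-0.35) and miR-194-2-5p (-0.19). They moved the median change of all miRNAs in that comparison by -0.14. Turned, uncalled: miR-192-3p on day 3 against 0 with totals without miR-21 (0.074). miR-192-5p turned on day 3 against 2 with upper-quartile factors (-0.0058) and on day 14 against 7 with library totals (-0.039) and totals without miR-21 (-0.091). On day 14 against 7, miR-194-2-5p (-0.053 and -0.10, same settings), miR-215-5p (-0.0047, totals without miR-21) and miR-192-3p (0.029, upper-quartile) turned. miR-192-3p turned on day 28 against 14 with library totals (-0.040), upper-quartile (-0.0068) and totals without miR-21 (-0.074), and on day 28 against 7 with upper-quartile (0.023) and only the days compared (0.036). The miR-215-5p to miR-192-5p ratio turned with 5 reads added (0.034) and medians (0.089).

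With 1 library left out at a time, the lowest and highest changes were as follows. For miR-194-2-5p they were -0.49 and -0.38 on day 1 against day 0, -0.056 and 0.061 in late against early, -0.12 and 0.23 on day 14 against 7, 0.20 and 0.55 on day 28 against 14, and 0.33 and 0.51 on day 28 against 7. For miR-192-5p they were -0.44 and -0.29 on day 28 against day 0 (called without Day 0 replicate 3 or Day 28 replicate 2), -0.061 and 0.013 in late against early, -0.067 and 0.16 on day 14 against 7, and 0.36 and 0.58 on day 28 against 14. For miR-215-5p they were -0.095 and 0.19 on day 14 against 7, and 0.49 and 0.82 on day 28 against 14 (call also lost without Day 14 replicate 2 or Day 28 replicate 1, this library also for miR-194-2-5p). For miR-192-3p they were -0.33 and 0.00028 on day 3 against 0, -0.62 and -0.12 on day 14 against 0, -0.033 and 0.36 on day 3 against 2, -0.26 and 0.073 on day 7 against 3, -0.36 and 0.14 on day 14 against 7, -0.18 and 0.32 on day 28 against 14, and -0.10 and 0.057 on day 28 against 7. The log2 ratio of miR-192-3p to miR-192-5p on days 1 to 28 against day 0 ran from 0.40 to 0.52, and that of miR-215-5p to miR-192-5p from -0.094 to 0.11. In late against early days, ratios ran from -0.090 to 0.0027 (miR-215-5p to miR-192-5p), -0.0095 to 0.046 (miR-194-2-5p to miR-192-5p) and -0.11 to 0.012 (miR-215-5p to miR-194-2-5p).

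Against TMM, library totals moved the median change of all miRNAs by 0.18 on day 2, totals without miR-21 by 0.28, and upper-quartile factors by -0.18 on day 7. The called miRNAs on day 2 were 105 higher and 82 lower with TMM, 143 and 47 with library totals, and on day 7 128 higher and 98 lower, 138 and 75 with totals and 102 and 124 with upper-quartile factors. With the replicate number as a replicate block no member's call changed (miR-192-5p on day 7 against day 0, -0.87). Libraries with the same number did not deviate together (median r -0.02 over 63 pairs), so the numbers do not pair them.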
